A study of Mus musculus with 36 samples.

Results

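The Kruppel-like factors (KLFs) described here were 10 of the 36528 genes in the count table: Klf2, Klf3, Klf4, Klf6, Klf7, Klf9, Klf10, Klf11, Klf13 and Klf16. They were taken by symbol, from a list chosen with earlier results of these data known. All 10 passed the filter on low counts, which left 15685 genes to test. Of 16 other KLF and SP family genes listed, 10 passed it. Polyadenylated RNA had been sequenced from bone marrow-derived macrophages, cells grown from mouse marrow, at day 7 of differentiation. Cop1-floxed cells (labelled Loxp) came from 3 COP1-floxed Rosa26-CreERT2 mice and wild-type cells (WT) from 3 COP1-wt Rosa26-CreERT2 mice, so both genotypes carried the inducible Cre gene at Rosa26. Each mouse gave 5 libraries after 100 ng/ml lipopolysaccharide (LPS), the bacterial membrane component sensed by TLR4, labelled T2.5, T4, T6, T9 or T13 by time, and 1 untreated library labelled T0, which made 36 libraries in 12 groups of n = 3. The series title calls the floxed cells a knockout of Cop1, a ubiquitin ligase; the unit of the time labels, the use of tamoxifen and the age of the mice are not given in the sources used here. Every LPS library also carried a later time label than T0, so LPS and time in culture cannot be told apart.

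KLFs are transcription factors whose C-terminal zinc fingers bind GC-rich and CACCC-type sequences, and they differ mainly in the domain that recruits cofactors. Klf2, Klf4, Klf6 and Klf7 belong to the branch that mostly activates transcription, Klf3 to the branch that binds the corepressor CtBP, and Klf9, Klf10, Klf11, Klf13 and Klf16 to the branch that binds the corepressor SIN3A. In macrophages Klf2 is best known for restraining inflammatory gene expression, Klf4 for roles in monocyte differentiation and in polarisation, and Klf6 for promoting inflammatory gene expression.

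Library totals lay between 24069541 and 40298009 counted reads, with a median of 34549113, and the smallest count of any of the 10 genes in any library was 38. Fewer genes were detected in replicate 2 of Cop1-floxed cells at T9, 15045, than in any other library (17622 to 19693). Wild-type replicate 2 held 983 to 2729 Xist reads together with 1480 to 2126 reads summed over 4 Y-linked genes in its 6 libraries. The other 5 mice had at most 31 Xist reads. Whether wild-type replicate 2 came from 1 mouse only was not tested, and it is counted as 1 mouse, per the labels. Its T0 library also had the lowest total. Without the wild-type T0 replicate 2 library, the 50 wild-type changes against T0 of the KLF genes moved by -0.40 to 0.31 on the log2 scale; 3 calls were gained (Klf2 at T4 and T13, Klf9 at T2.5) and 1 was lost (Klf13 at T6). Cop1 (Rfwd2 in the table) was lower in Cop1-floxed cells than in wild-type cells at every time, with log2 fold changes between -1.21 at T2.5 and -0.70 at T0, all past the threshold in edgeR's quasi-likelihood test. The 10 macrophage markers summed to between 11200 and 22300 RPKM in every library. RPKM are the deposited values, read counts scaled by gene model length and sequencing depth, adjusted by the authors with size factors. Log2 fold changes are from edgeR on TMM-scaled counts, with SE, and a change is called where the Benjamini-Hochberg adjusted p over all genes tested is under 0.05. In bulk RNA, fewer cells of a type and less RNA per cell cannot be told apart.

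RefSeq promoter windows of GRCm38.p6, running from 250 bases before to 50 bases after the listed start, were found for 8 of the 10 genes, all but Klf10 and Klf16. The 250 bases before the start are shown for the 5 genes on which the results below turn most, Klf2 and Klf4 because a MEK5-ERK5-MEF2 pathway is known to drive them, and Klf3, Klf6 and Klf7 because they rose the most with LPS. Capitals mark CACCC on either strand (GGGTG when it lies on the other strand) and the binding motif of MEF2 factors. The windows are chr8:72318812-72319061 (plus strand) for Klf2, chr4:55532476-55532725 (minus strand) for Klf4, chr13:5861239-5861488 (plus strand) for Klf6, chr1:64121390-64121639 (minus strand) for Klf7 and chr5:64803271-64803520 (plus strand) for Klf3. The window of Klf7 lies inside its gene model, since the start listed for it is not the outer end of the model.
Klf2: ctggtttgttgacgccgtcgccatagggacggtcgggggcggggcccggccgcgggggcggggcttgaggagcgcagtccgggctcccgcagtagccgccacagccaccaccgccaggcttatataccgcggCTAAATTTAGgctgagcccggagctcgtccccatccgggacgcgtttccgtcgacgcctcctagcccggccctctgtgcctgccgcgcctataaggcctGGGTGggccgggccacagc
Klf4: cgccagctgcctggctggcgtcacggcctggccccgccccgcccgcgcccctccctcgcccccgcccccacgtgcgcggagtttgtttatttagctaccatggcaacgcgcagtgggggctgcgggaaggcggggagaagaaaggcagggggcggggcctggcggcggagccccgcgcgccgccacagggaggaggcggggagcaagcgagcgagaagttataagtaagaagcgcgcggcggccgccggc
Klf6: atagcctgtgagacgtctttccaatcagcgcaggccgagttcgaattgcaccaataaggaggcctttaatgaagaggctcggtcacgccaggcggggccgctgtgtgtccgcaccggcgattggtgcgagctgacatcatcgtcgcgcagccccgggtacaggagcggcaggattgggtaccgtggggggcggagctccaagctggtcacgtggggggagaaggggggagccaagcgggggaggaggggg
Klf7: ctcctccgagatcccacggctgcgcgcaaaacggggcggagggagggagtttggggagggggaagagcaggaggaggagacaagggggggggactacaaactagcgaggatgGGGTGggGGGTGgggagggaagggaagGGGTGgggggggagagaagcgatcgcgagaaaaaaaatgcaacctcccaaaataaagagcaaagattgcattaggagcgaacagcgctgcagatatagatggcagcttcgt
Klf3: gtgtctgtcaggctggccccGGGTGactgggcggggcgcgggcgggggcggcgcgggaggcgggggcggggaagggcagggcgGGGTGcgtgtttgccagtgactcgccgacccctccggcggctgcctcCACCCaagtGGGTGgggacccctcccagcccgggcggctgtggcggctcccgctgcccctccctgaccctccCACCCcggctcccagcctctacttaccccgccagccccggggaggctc

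A MEF2 motif was found in the window of Klf2, 118 bases before the start, and in no other of the 8; 3.19% of all 32851 windows held one. CACCC was found in 5 of the 8 windows, at 5 places for Klf3, 3 for Klf7 and 1 each for Klf2, Klf9 and Klf13, against 57.5% of all windows. GGGCGG, the GC box bound by SP factors, was found in 7 of 8 windows, all but that of Klf9, against 35.7% of all windows, and a loose NF-kappaB-type motif, GGG and CC with any 5 bases between them, in 6 of 8 against 50.8%. CCAAT was found in 4 of 8 (37.4% of all windows) and TATAAA in 0 of 8 (13.6%). TGANTCA, a loose AP-1-type motif with any base in the middle, was found in 1 of 8, that of Klf9 (7.81%). The Klf9 match reads TGAATCA, which is not the AP-1 consensus. Both strands were searched, and places of different motifs may overlap. The GC content of the 300-base windows was between 58.3% for Klf7 and 77.7% for Klf11, above the median of 52.7% over all windows. The RefSeq gene models span chr8:72319062-72321654 for Klf2, chr4:55527137-55532475 for Klf4, chr13:5861489-5870393 for Klf6, chr1:64029448-64122345 for Klf7, chr5:64803521-64832901 for Klf3, chr19:23141226-23168129 for Klf9, chr15:38291464-38300711 for Klf10, chr12:24651371-24662782 for Klf11, chr7:63886351-63938915 for Klf13 and chr10:80567121-80577296 for Klf16. A match is a description of the letters and not a measured binding site.

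The first question was at what level these macrophages held the 10 chosen KLF mRNAs, and in what order. Klf6, an activator first described as a core promoter element binding protein, had the highest level in all 12 groups, and the range over groups was wide, with means between 36.7 RPKM in untreated wild-type cells and 509 RPKM in Cop1-floxed cells at T6. In untreated cells it was followed by Klf13, with a mean of 17.8 ± 0.252 RPKM in Cop1-floxed and 15.3 ± 1.59 RPKM in wild-type cells, and by Klf10, with 15.6 ± 0.896 RPKM in Cop1-floxed and 12.2 ± 2.5 RPKM in wild-type cells (SD, n = 3 each). Klf7 was the lowest of the 10 in untreated cells, with 1.74 ± 0.155 RPKM in Cop1-floxed and 1.10 ± 0.684 RPKM in wild-type cells (SD, n = 3 each). The order changed with LPS. At T2.5, T4 and T6 Klf6, Klf3, Klf13 and Klf7 were the highest, in that order, in both genotypes, and at T13 Klf9 was the lowest in both genotypes, at 0.351 RPKM in Cop1-floxed and 0.596 RPKM in wild-type cells. Over the 12 groups, 25 of the 108 pairs of neighbours in this order had library values that overlapped, 5 of them among untreated wild-type cells, where Klf4, Klf2, Klf9 and Klf11, all between 2.90 and 3.60 RPKM on average, could not be ordered beyond their spread.

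**Figure D1:**
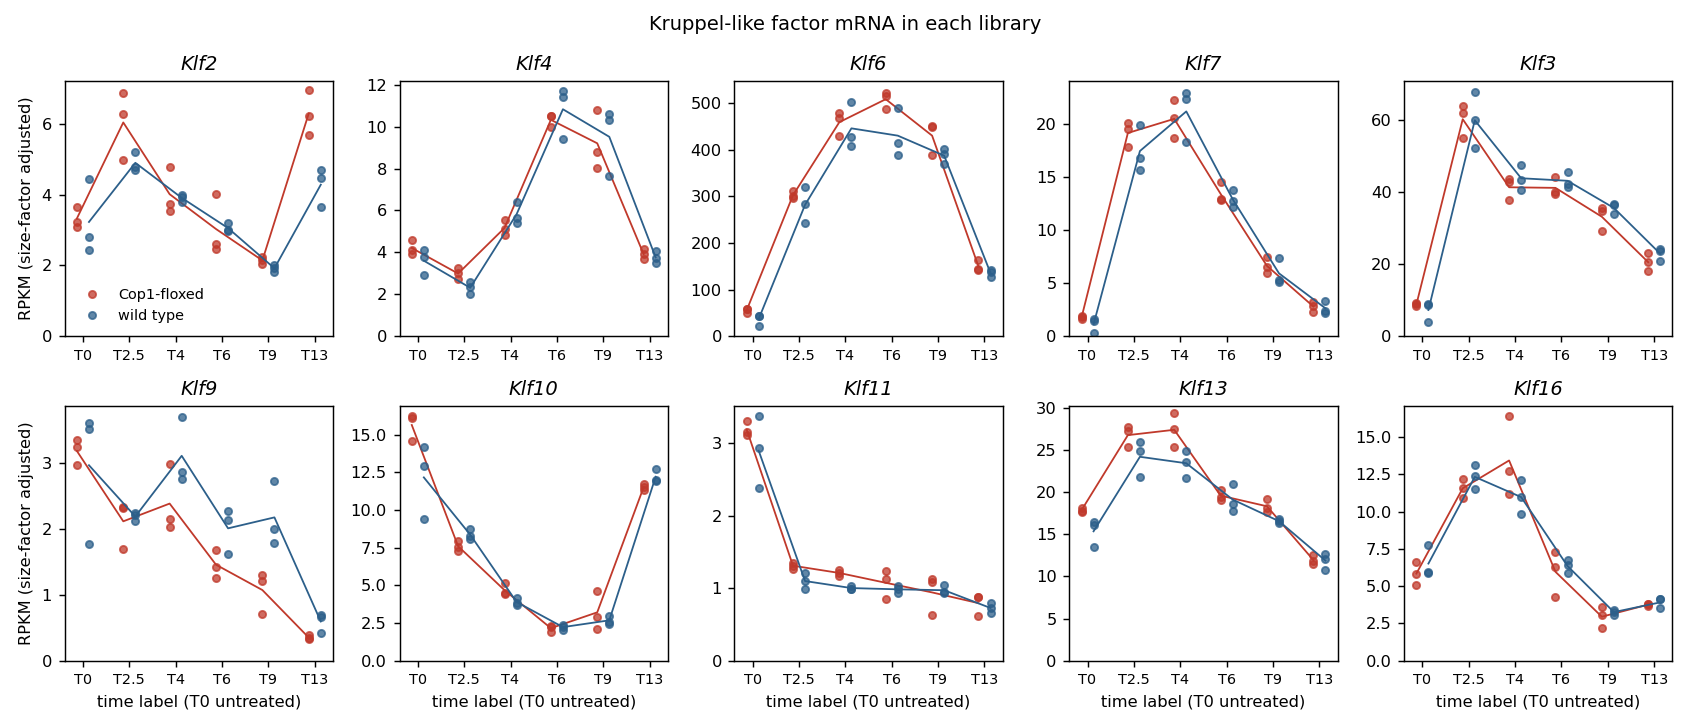
Deposited RPKM (size-factor adjusted, linear axes from 0) of each KLF gene by time label in Cop1-floxed cells (red) and wild-type cells (blue). Each point is 1 library, n = 3 per group, and lines join group means. Klf6 reaches 509 RPKM in Cop1-floxed cells at T6 while Klf9 falls to 0.351 RPKM at T13, and 1 wild-type T0 library lies low for Klf6, Klf7, Klf3, Klf9 and Klf10.

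The second question was how each gene changed with LPS in each genotype. In Cop1-floxed cells 42 of the 50 gene-by-time tests were called, 23 higher and 19 lower than T0, and in wild-type cells 41 of 50, 24 higher and 17 lower. Of all genes tested, 57.0%, 66.7%, 70.3%, 70.9% and 65.8% were called at the 5 LPS times in Cop1-floxed cells, in time order, and 58.8%, 67.9%, 70.5%, 70.1% and 67.3% in wild-type cells, so most genes changed. In Cop1-floxed cells the numbers of KLF genes higher were 6, 5, 4, 4 and 4 at successive times, beside 29.0%, 31.7%, 32.6%, 32.5% and 30.8% of all genes, and those lower were 4, 2, 3, 5 and 5, beside 28.0%, 35.1%, 37.7%, 38.4% and 35.0%. In wild-type cells 6, 6, 5, 4 and 3 KLF genes were higher, beside 28.8%, 31.5%, 32.1%, 32.3% and 32.6% of all genes, and 3, 2, 3, 5 and 4 were lower, beside 30.0%, 36.4%, 38.4%, 37.9% and 34.7%. The shares of KLF genes rest on 10 genes and were not tested against these. Both genotypes called 39 of the same tests, all with the same sign; 3 were called in Cop1-floxed cells alone, 2 in wild-type cells alone and 6 in neither. At T2.5 the median over the 10 genes was 0.72 in Cop1-floxed and 0.60 in wild-type cells, against -0.01 and -0.06 over all genes tested; at T9 it was -0.36 and -0.24, against -0.13 and -0.14. The scaling matters for the smaller changes. The LPS libraries had TMM factors of 0.747 to 1.12, against 1.53 to 1.73 for the T0 libraries, and scaling by library totals in place of TMM moved the median of all genes to between -0.64 and -1.16. With library totals 43 tests were called in each genotype, but only 15 of them higher in Cop1-floxed and 16 in wild-type cells, and 16 of the 100 values, all of Klf2, Klf4, Klf9, Klf13 and Klf16, changed sign. A further 8 kept their sign but lost their call: Klf2 at T2.5 and T13, Klf4 at T6 and T9 and Klf16 at T4 in Cop1-floxed cells, Klf16 at T2.5 in wild-type cells, and Klf7 at T13 in both. Directions are therefore given relative to the bulk of genes.

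**Figure D2:**
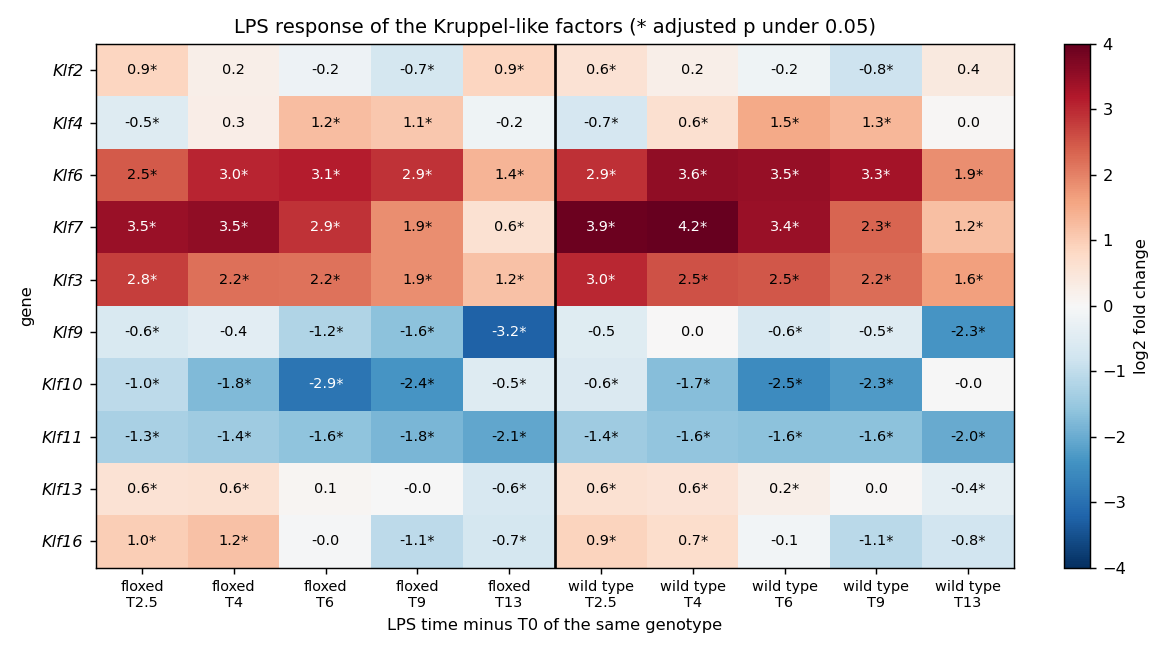
Log2 fold change of each KLF gene at each LPS time minus T0 of the same genotype (edgeR, TMM, n = 3 per group), with Cop1-floxed cells on the left and wild-type cells on the right; * marks adjusted p under 0.05. Klf6, Klf7 and Klf3 are higher and Klf11 lower at every LPS time in both genotypes; with library totals these keep their calls except Klf7 at T13, and 16 values of Klf2, Klf4, Klf9, Klf13 and Klf16 change sign.

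Among the activators, Klf6 rose at every LPS time in both genotypes. It had 488, 523 and 516 RPKM in Cop1-floxed cells at T6, against 57.6, 57.2 and 50.6 RPKM at T0, and 503, 428 and 408 RPKM in wild-type cells at T4, against 43.6, 22.6 and 43.9 RPKM at T0. No LPS library of either genotype overlapped the T0 libraries of the same genotype, and wild-type T0 replicate 2 lay below the other wild-type T0 libraries. On the log2 scale the change was 3.15 (SE 0.16, adjusted p = 9.33e-18) in Cop1-floxed cells at T6 and 3.55 (SE 0.16, adjusted p = 7.89e-19) in wild-type cells at T4, and at T13 it was still 1.37 and 1.86. Without the wild-type T0 replicate 2 library the wild-type value at T4 was 3.31.

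Klf7, an activator studied mostly in neurons and adipocytes, had the largest relative rise of the 10 genes at T2.5 and T4. It had 18.7, 22.2 and 20.5 RPKM in Cop1-floxed cells at T4, against 1.56, 1.80 and 1.85 RPKM at T0, and 22.9, 18.3 and 22.3 RPKM in wild-type cells at T4, against 1.56, 0.312 and 1.42 RPKM at T0. The groups did not overlap, and 1 wild-type T0 library was low. At T4 the log2 fold change was 3.54 (SE 0.26, adjusted p = 2.42e-13) in Cop1-floxed and 4.19 (SE 0.27, adjusted p = 9.19e-15) in wild-type cells, and 3.79 in wild-type cells without the T0 replicate 2 library. By T13 the level had come back to 2.29, 3.22 and 2.85 RPKM in Cop1-floxed cells and 3.26, 2.19 and 2.40 RPKM in wild-type cells, with log2 fold changes of 0.62 (adjusted p = 0.0324) and 1.20 (adjusted p = 1.58e-04). Neither was called with library totals, which gave 0.004 (adjusted p = 0.989) in Cop1-floxed and 0.47 (adjusted p = 0.101) in wild-type cells. The Cop1-floxed call at T13 was also lost with a minimum mean of 5 CPM and without any 1 of the Cop1-floxed mice. Klf7 shares 3196 exonic bases with the lincRNA Gm26649 on the other strand, and no source used here says whether the counting used strand: the reads of the pair cannot be told apart.

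Klf4 fell first and rose later. At T2.5 it had 3.26, 2.71 and 2.99 RPKM in Cop1-floxed cells, against 3.94, 4.09 and 4.59 RPKM at T0, and 2.01, 2.35 and 2.56 RPKM in wild-type cells, against 2.94, 3.76 and 4.10 RPKM at T0. At T6 it had 9.99, 10.5 and 10.5 RPKM in Cop1-floxed and 11.7, 11.4 and 9.41 RPKM in wild-type cells. The T2.5 libraries lay below and the T6 libraries above all T0 libraries of their genotype. On the log2 scale Klf4 changed by -0.50 (SE 0.13, adjusted p = 0.00143) in Cop1-floxed and -0.68 (SE 0.13, adjusted p = 5.63e-05) in wild-type cells at T2.5, and 1.24 (adjusted p = 4.34e-10) and 1.51 (adjusted p = 6.41e-12) at T6. At T13 the values were -0.17 and 0.04, neither of them called. Without the wild-type T0 replicate 2 library the wild-type value at T6 was 1.56. With library totals the values at T4, 0.27 in Cop1-floxed and 0.64 in wild-type cells, became -0.60 and -0.26, and the rise in Cop1-floxed cells was not called at T6 (0.20, adjusted p = 0.135) or T9 (0.11, adjusted p = 0.401).

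Klf2 moved in the other order from Klf4, and less. At T2.5 it had 6.28, 6.90 and 4.98 RPKM in Cop1-floxed cells, against 3.10, 3.66 and 3.24 RPKM at T0, and 4.80, 4.72 and 5.21 RPKM in wild-type cells, against 2.44, 4.45 and 2.81 RPKM at T0. The T2.5 libraries lay above all T0 libraries of their genotype. At T9 it had 2.24, 2.04 and 2.15 RPKM in Cop1-floxed and 1.82, 2.01 and 1.93 RPKM in wild-type cells, below every T0 library of its genotype. At T2.5 the log2 fold change was 0.85 (SE 0.17, adjusted p = 9.16e-05) in Cop1-floxed and 0.57 (SE 0.18, adjusted p = 0.00572) in wild-type cells, and at T9 -0.70 (adjusted p = 0.0013) and -0.82 (adjusted p = 2.54e-04). At T13 Klf2 was again above T0 in Cop1-floxed cells, by 0.86 (adjusted p = 7.58e-05), and 0.39 in wild-type cells (adjusted p = 0.0521), where it was called without the T0 replicate 2 library (0.70, adjusted p = 3.66e-04). Without that library the wild-type value at T2.5 was 0.88. With library totals no rise of Klf2 was called: at T2.5 the value was 0.23 (adjusted p = 0.229) in Cop1-floxed and -0.08 in wild-type cells, and at T13 it was 0.24 (adjusted p = 0.201) in Cop1-floxed and -0.32 (adjusted p = 0.0896) in wild-type cells. Across the 12 group means of log2 CPM, which share mice and times, Klf2 and Klf4 had a Pearson r of -0.78.

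Klf3, the CtBP-binding repressor, rose at every LPS time and was highest at T2.5. It had 54.8, 63.7 and 61.8 RPKM in Cop1-floxed cells at T2.5, against 9.14, 8.83 and 8.21 RPKM at T0, and 67.5, 52.1 and 59.8 RPKM in wild-type cells, against 9.01, 3.98 and 8.65 RPKM at T0. The groups did not overlap. Klf3 changed by 2.78 on the log2 scale (SE 0.17, adjusted p = 4.15e-15) in Cop1-floxed and 3.02 (SE 0.17, adjusted p = 5.80e-16) in wild-type cells, and 2.74 in wild-type cells without the T0 replicate 2 library; at T13 it was 1.16 and 1.64. Klf3 shares 404 exonic bases with Gm20033 on the other strand. Over the 12 group means Klf3 had an r of 0.936 with Klf7 and 0.911 with Klf6, the 2 highest values among the 45 pairs of KLF genes.

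The SIN3A-binding repressors split into 2 groups. Every called change of Klf9, Klf10 and Klf11 against T0 was a fall, while Klf13 and Klf16 rose at T2.5 and T4 and fell at T13. The signs at the early times turned with library totals for Klf13 in both genotypes and for Klf16 in wild-type cells at T4. Klf11, known as a TGF-beta-inducible early gene, fell at every LPS time. It had 1.31, 1.35 and 1.27 RPKM in Cop1-floxed cells at T2.5, against 3.30, 3.12 and 3.15 RPKM at T0, and 1.21, 1.10 and 0.986 RPKM in wild-type cells, against 2.93, 2.38 and 3.38 RPKM at T0. No LPS library overlapped T0 in either genotype. For Klf11 the log2 fold change was -1.29 (SE 0.15, adjusted p = 1.46e-08) in Cop1-floxed and -1.43 (SE 0.16, adjusted p = 2.32e-09) in wild-type cells at T2.5 (-1.54 without the wild-type T0 replicate 2 library), and -2.07 and -2.01 at T13.

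Klf10, the other TGF-beta-inducible early gene, fell until T6 and then came back. It had 1.93, 2.29 and 2.25 RPKM in Cop1-floxed cells at T6, against 16.1, 16.2 and 14.6 RPKM at T0, and 2.05, 2.39 and 2.24 RPKM in wild-type cells, against 12.9, 9.37 and 14.2 RPKM at T0. At T13 it had 11.3, 11.5 and 11.7 RPKM in Cop1-floxed and 11.9, 12 and 12.7 RPKM in wild-type cells, within the T0 range in wild-type cells and below it in Cop1-floxed cells. At T6 the log2 fold change was -2.92 (SE 0.17, adjusted p = 3.40e-16) in Cop1-floxed and -2.53 (SE 0.16, adjusted p = 8.82e-15) in wild-type cells, and at T13 -0.51 (adjusted p = 0.00413) and -0.01 (adjusted p = 0.94). With library totals the wild-type value at T13 was a called fall, -0.74 (adjusted p = 2.12e-04). Without the wild-type T0 replicate 2 library the wild-type value at T6 was -2.67. Over the 12 group means Klf10 had an r of -0.852 with Klf4 and -0.822 with Klf6.

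Klf9, which glucocorticoids and thyroid hormone are known to induce, had its lowest level at T13. It had 0.345, 0.324 and 0.385 RPKM in Cop1-floxed cells, against 3.25, 3.35 and 2.97 RPKM at T0, and 0.423, 0.699 and 0.666 RPKM in wild-type cells, against 3.53, 1.78 and 3.61 RPKM at T0. Both genotypes were well below T0. The log2 fold change at T13 was -3.25 (SE 0.26, adjusted p = 1.56e-12) in Cop1-floxed and -2.35 (SE 0.24, adjusted p = 4.46e-10) in wild-type cells, or -2.59 without the wild-type T0 replicate 2 library. At T4 it was -0.44 and 0.01, neither called, and with library totals the wild-type value at T4 was -0.89.

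Klf13, known as a regulator of the chemokine gene Ccl5 in T cells, was among the most abundant KLF mRNAs and changed least. It had 27.7, 25.3 and 27.2 RPKM in Cop1-floxed cells at T2.5, against 17.8, 17.6 and 18.1 RPKM at T0, and 25.9, 21.8 and 24.8 RPKM in wild-type cells, against 16.1, 13.5 and 16.4 RPKM at T0. All T2.5 libraries lay above T0. Its log2 fold change was 0.58 (SE 0.08, adjusted p = 3.04e-07) in Cop1-floxed and 0.62 (SE 0.08, adjusted p = 6.81e-08) in wild-type cells (0.56 without the wild-type T0 replicate 2 library), and at T13 -0.64 and -0.39, both called. With library totals both T2.5 values were -0.05, so the early rise of Klf13 holds only relative to the bulk of genes.

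Klf16 had 16.4, 11.2 and 12.7 RPKM in Cop1-floxed cells at T4, against 5.11, 5.80 and 6.62 RPKM at T0, and 11.0, 12.1 and 9.83 RPKM in wild-type cells, against 5.85, 7.76 and 5.94 RPKM at T0. At T9 it had 3.59, 3.07 and 2.19 RPKM in Cop1-floxed and 3.09, 3.30 and 3.39 RPKM in wild-type cells. The T4 libraries lay above and the T9 libraries below T0 in both genotypes. The log2 fold change at T4 was 1.18 (SE 0.16, adjusted p = 8.17e-08) in Cop1-floxed and 0.69 (SE 0.16, adjusted p = 2.36e-04) in wild-type cells, and at T9 it was -1.05 and -1.07. With library totals neither early rise was called at T4 (0.30, adjusted p = 0.0743, in Cop1-floxed and -0.19 in wild-type cells), nor that in wild-type cells at T2.5 (0.23, adjusted p = 0.181). Without the wild-type T0 replicate 2 library the wild-type value at T4 was 0.85.

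Between T13 and T2.5, 9 of the 10 genes were called in each genotype, 2 higher (Klf4 and Klf10) and 7 lower at T13, and Klf2 was not called; of all genes tested 63.7% were called in Cop1-floxed cells, 30.2% higher and 33.4% lower, and 64.3% in wild-type cells, 32.5% higher and 31.8% lower. Klf7 was lower at T13 than at T2.5 by the largest amount, with log2 fold changes of -2.84 (SE 0.25, adjusted p = 3.31e-11) in Cop1-floxed and -2.73 (SE 0.25, adjusted p = 7.14e-11) in wild-type cells. Klf10 was higher at T13 by 0.54 (adjusted p = 0.00264) and 0.56 (adjusted p = 0.00198).

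The third question was whether the genotypes differed. Of 60 tests, 10 genes at 6 times, 3 were called, while 12 had an unadjusted p under 0.05. Of all genes tested, 9.57% were called at T0, and 3.90%, 4.86%, 7.80%, 10.4% and 3.10% at successive LPS times. Klf6 was higher in untreated Cop1-floxed cells, with 57.6, 57.2 and 50.6 RPKM, against 43.6, 22.6 and 43.9 RPKM in untreated wild-type cells. These groups did not overlap, and Klf6 differed by 0.60 on the log2 scale (SE 0.15, adjusted p = 0.00616). It was 0.36 (adjusted p = 0.04) without the wild-type T0 replicate 2 library, 0.33 (adjusted p = 0.0394) without wild-type replicate 2 at all times, 0.54 (adjusted p = 0.0689) without Cop1-floxed replicate 1 and 0.56 (adjusted p = 0.0626) without Cop1-floxed replicate 2. With the 6 T0 libraries alone it was 0.54 (adjusted p = 0.509). Under LPS the Klf6 difference lay between 0.09 at T4 and 0.28 at T6 and was not called.

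Klf9 was lower in Cop1-floxed cells at T9, with 1.30, 0.714 and 1.21 RPKM, against 1.79, 2.74 and 2.01 RPKM in wild-type cells. The groups did not overlap, and the lowest value was that of the library with few detected genes. The log2 fold change was -0.99 (SE 0.24, adjusted p = 0.00608), -0.80 (adjusted p = 0.0602) without that library and -0.80 (adjusted p = 0.0892) without its mouse. At T13 the difference was -0.79 (SE 0.28, adjusted p = 0.145), with 0.345, 0.324 and 0.385 RPKM in Cop1-floxed and 0.423, 0.699 and 0.666 RPKM in wild-type cells. Klf13 was higher in Cop1-floxed cells at T4, with 29.3, 27.5 and 25.3 RPKM, against 24.9, 21.7 and 23.6 RPKM in wild-type cells. The groups did not overlap, the log2 fold change was 0.27 (SE 0.08, adjusted p = 0.0446), and the call was lost with the size factors of DESeq2 (0.23, adjusted p = 0.133) and with library totals (0.17, adjusted p = 0.279). It was also lost without any 1 of the Cop1-floxed mice (0.20 to 0.31, adjusted p 0.073 to 0.389) and without wild-type replicate 2 (0.21, adjusted p = 0.108) or 3 (0.28, adjusted p = 0.193).

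Some cell type markers differed between the genotypes at T0, T4 and T9, the times of the 3 calls. Of all genes tested, 9.57%, 4.86% and 10.4% were called between the genotypes at these times. The 14 stromal and endothelial markers summed to 34.5, 25.7 and 39.8 RPKM in untreated Cop1-floxed cells, against 76.3, 176 and 130 RPKM in untreated wild-type cells, with 8 of the 12 tested markers lower and 0 higher in Cop1-floxed cells. At T4 they summed to between 31.8 and 43.5 RPKM in Cop1-floxed and between 90.4 and 182 RPKM in wild-type cells, with 9 of 12 lower. At T9 they summed to between 58.3 and 68.9 RPKM in Cop1-floxed and between 119 and 216 RPKM in wild-type cells, with 7 of 12 lower. In no group at T0 or T9 did a marker of the list have 0 counts in all 3 libraries, but 1 did in Cop1-floxed cells at T4. Granulocyte and precursor markers summed to 62.7, 67.8 and 74.2 RPKM in Cop1-floxed and 62.1, 143 and 73.3 RPKM in wild-type cells at T0, with 4 of 8 tested markers lower and 0 higher in Cop1-floxed cells. At T4 0 of these 8 were called. At T9 they summed to between 134 and 152 RPKM in Cop1-floxed and between 114 and 125 RPKM in wild-type cells, with 1 of 8 higher and 0 lower. Macrophage markers summed to between 17600 and 18700 RPKM in Cop1-floxed and between 13100 and 14400 RPKM in wild-type cells at T0, with 3 of 10 higher and 0 lower in Cop1-floxed cells. At T4 they summed to between 21000 and 22200 RPKM in Cop1-floxed and between 17500 and 17900 RPKM in wild-type cells, with 1 of 10 higher and 0 lower. At T9 they summed to between 17500 and 19400 RPKM in Cop1-floxed and between 13900 and 14900 RPKM in wild-type cells, with 4 of 10 higher and 0 lower. Lymphocyte markers summed to less than 2.6 RPKM in every library. The part of these markers' cells in the differences of Klf6, Klf13 and Klf9 was not tested.

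**Figure D3:**
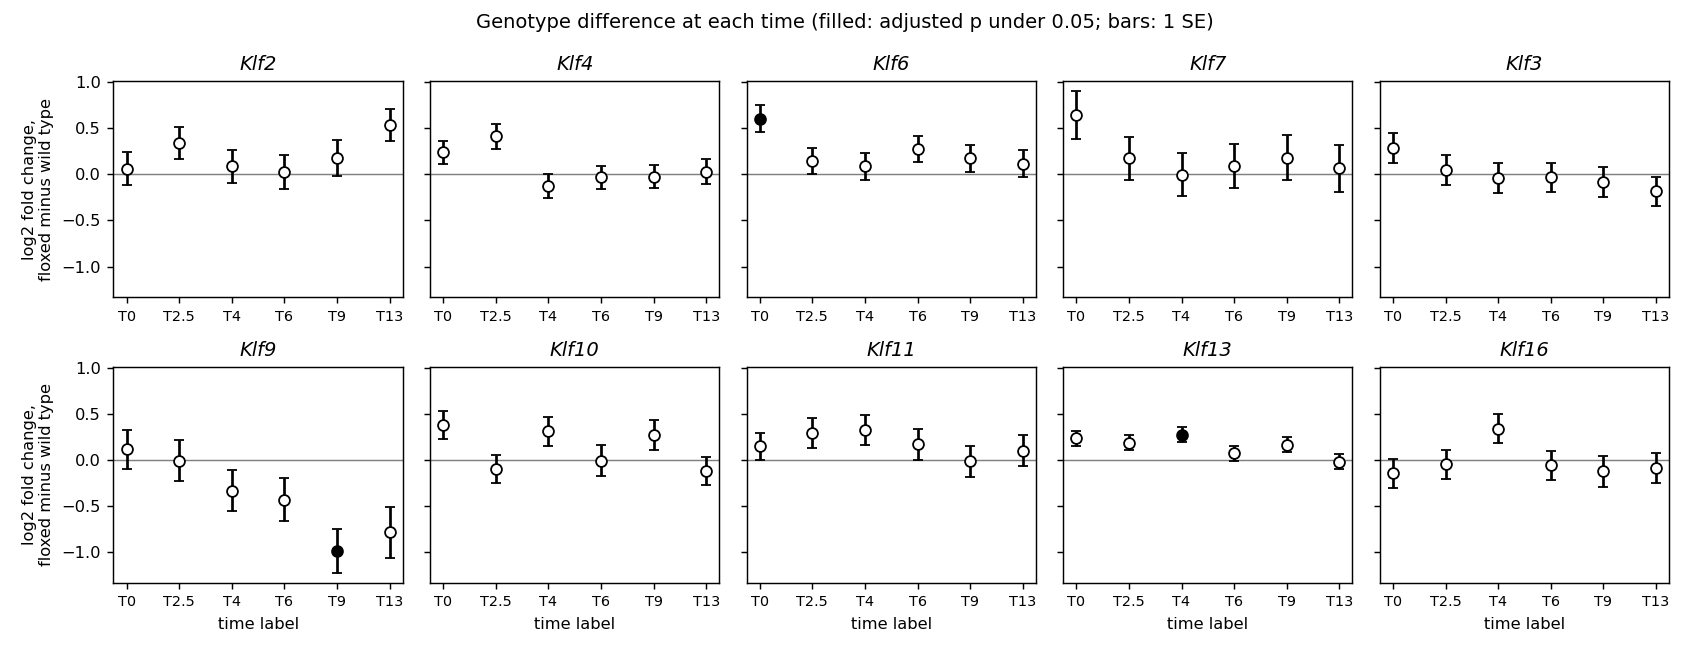
Log2 fold change of each KLF gene, with Cop1-floxed cells above wild-type cells where positive, by time label (edgeR, n = 3 per group); bars are 1 SE and filled points have an adjusted p under 0.05. The 3 filled points are Klf6 at T0 (0.60), Klf13 at T4 (0.27) and Klf9 at T9 (-0.99).

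The remaining 57 differences were not called, and the widest of them was that of Klf9 at T13. Their intervals are not narrow: Klf7 at T0 was 0.65 (95% interval 0.14 to 1.15, adjusted p = 0.125), or 0.25 without the wild-type T0 replicate 2 library, and Klf2 at T13 was 0.53 (0.19 to 0.87, adjusted p = 0.101), so a difference of this size is not shown to be absent. Klf7 at T0 was called with limma-voom (0.84, adjusted p = 0.0495) and without wild-type replicate 1 (0.96, adjusted p = 0.0216). Klf2 at T13 and Klf13 at T0 were each called in 3 of 17 alternatives, and Klf10 at T0 in 1 of 17. The response to LPS itself was compared with 1 F test over the 5 interaction terms. It called 0 of the 10 genes (adjusted p between 0.413 and 0.978; 1 gene had an unadjusted p under 0.05), against 0.599% of all genes tested, and DESeq2 and limma-voom also called 0. Of the 50 single interaction terms, between -1.10 and 0.48, 0 were called and 11 had an unadjusted p under 0.05; the lowest adjusted p was 0.0964, for Klf9 at T9. Of all genes tested, 0.408%, 0.357%, 0.249%, 0.848% and 0.733% had a called interaction term at successive LPS times. In counts summed over the 6 libraries of each mouse, with 3 mice per genotype, 0 of the 10 genes were called (2 at an unadjusted p under 0.05), with log2 fold changes between -0.25 for Klf9 and 0.23 for Klf2 and a lowest adjusted p of 0.161, against 7.33% of all 17182 genes tested; DESeq2 on the same sums also called 0.

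Of the other 16 KLF and SP family genes listed, 10 passed the filter on low counts. At T2.5, 3 rose and 3 fell in Cop1-floxed cells, beside 29.0% and 28.0% of all genes, and 4 rose and 2 fell in wild-type cells, beside 28.8% and 30.0%. Klf5, an activator related to Klf4, had 61, 52 and 57 reads in Cop1-floxed cells at T2.5, against 1, 2 and 4 reads at T0, and 91, 84 and 74 reads in wild-type cells, against 4, 3 and 13 reads at T0. Its log2 fold change was 5.0 (SE 0.57, adjusted p = 5.05e-09) in Cop1-floxed and 4.25 (SE 0.49, adjusted p = 5.68e-09) in wild-type cells, on few reads at T0. Klf8, a CtBP-binding repressor like Klf3, had 2.97, 4.21 and 3.50 RPKM in Cop1-floxed cells at T6, against 0.289, 0.364 and 0.236 RPKM at T0, and 4.51, 4.40 and 3.09 RPKM in wild-type cells, against 0.220, 0.0769 and 0.204 RPKM at T0. Its log2 fold change at T6 was 3.53 (adjusted p = 2.40e-13) in Cop1-floxed and 4.45 (adjusted p = 3.39e-15) in wild-type cells. Sp2 rose by 0.89 (adjusted p = 1.64e-08) in Cop1-floxed and 1.06 (adjusted p = 4.78e-10) in wild-type cells at T2.5, and with library totals by 0.26 and 0.39. Klf15 had 11, 10 and 4 reads in Cop1-floxed and 14, 5 and 15 reads in wild-type cells at T0, and 0 reads in all 6 libraries at T2.5. At T0 the genotypes differed in Sp7, which was lower in Cop1-floxed cells (-1.89, adjusted p = 0.0105), and Sp3, which was higher (0.64, adjusted p = 0.0345, and not called with library totals). Sp7 is a transcription factor of the osteoblast lineage.

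The MEK5-ERK5-MEF2 list holds the kinases, MEF2 factors and FOXO factors known to act upstream of Klf2 and Klf4, and 9 of its 10 genes were tested. At T2.5, 4 were lower and 0 higher in Cop1-floxed cells, beside 28.0% of all genes lower, and 3 were lower and 0 higher in wild-type cells, beside 30.0%. At T4, T6 and T9 all 9 were lower in both genotypes, with a median of -1.02 in Cop1-floxed and -0.66 in wild-type cells at T4, beside -0.07 and -0.11 over all genes tested. Of all genes tested, 35.1% were lower at T4 in Cop1-floxed and 36.4% in wild-type cells. Mapk7, which encodes ERK5, had 3.33, 3.90 and 3.58 RPKM in Cop1-floxed cells at T4, against 14.9, 13.6 and 17.0 RPKM at T0, and 3.56, 3.26 and 3.55 RPKM in wild-type cells, against 13.2, 12.7 and 12.4 RPKM at T0. Its log2 fold change was -2.09 (SE 0.14, adjusted p = 8.79e-15) in Cop1-floxed and -1.94 (SE 0.14, adjusted p = 5.04e-14) in wild-type cells. Mef2d fell by 2.00 in Cop1-floxed and 2.21 in wild-type cells on the log2 scale at T4, and Foxo3 by 3.98 and 3.70. Klf2, whose window carries the MEF2 motif shown above, was at 0.25 in Cop1-floxed and 0.23 in wild-type cells at that time, neither of them called, and at -0.63 and -0.66, both called, with library totals. Klf4, whose window carries no such motif, was at 0.27 (not called) in Cop1-floxed and 0.64 (called) in wild-type cells at T4. With library totals Klf4 was at -0.60 (called) and -0.26 (not called). At T6 Klf2 was at -0.19 in Cop1-floxed and -0.16 in wild-type cells, neither called, and Klf4 at 1.24 and 1.51, both called. At T9 Klf2 was at -0.70 and -0.82 and Klf4 at 1.07 and 1.33, all called. With library totals Klf2 was called lower at T6 and T9 in both genotypes. Klf4 then stayed called higher in wild-type cells alone, with 0.55 at T6 and 0.44 at T9. The part of the list in these values was not tested.

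**Figure D4:**
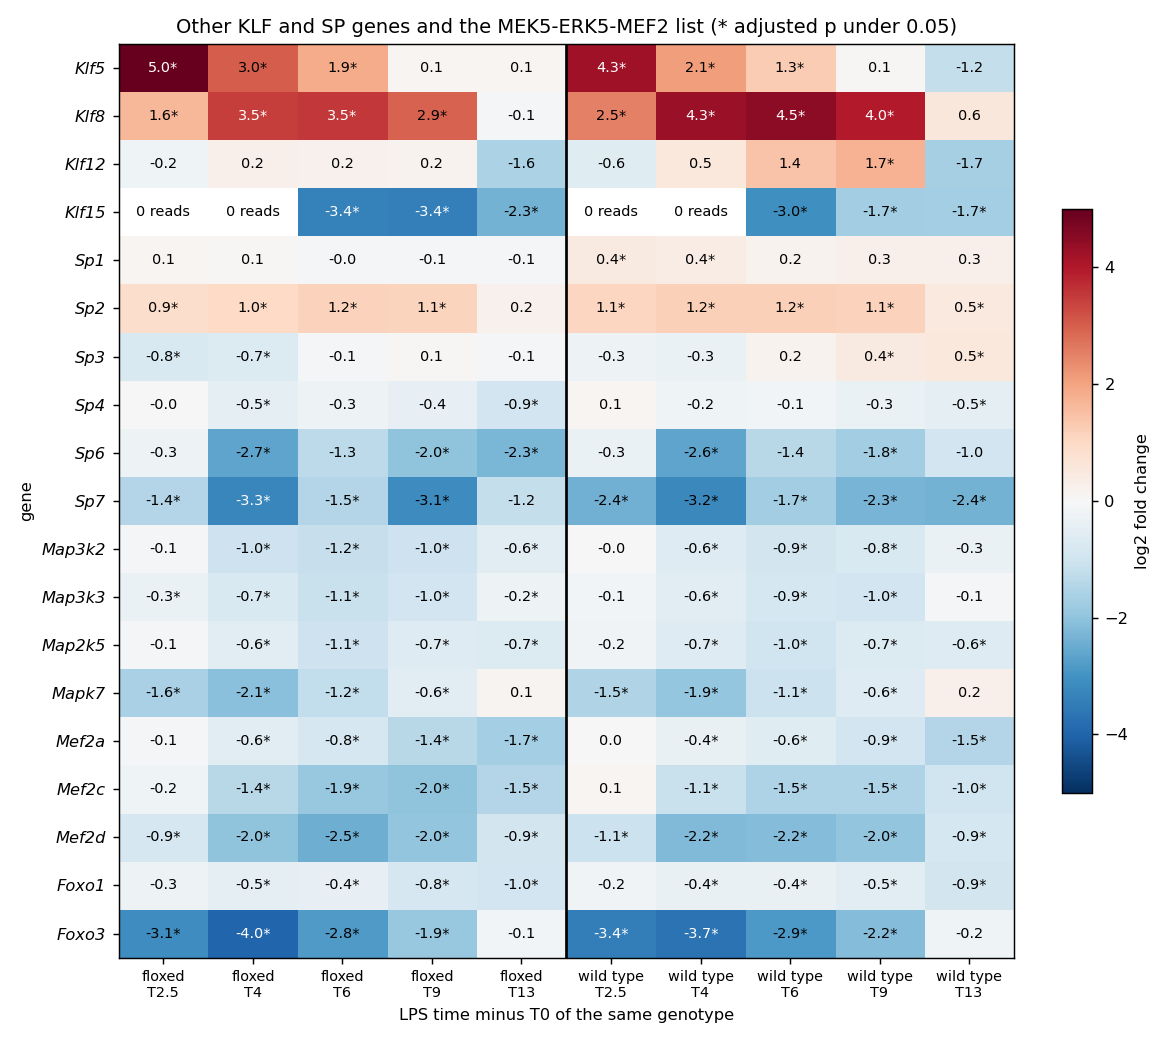
Log2 fold change at each LPS time minus T0 of the same genotype for the tested other KLF and SP genes (upper rows) and the MEK5-ERK5-MEF2 list (lower rows), Cop1-floxed cells on the left and wild-type cells on the right; * marks adjusted p under 0.05, and cells marked 0 reads have no count in any of the 3 LPS libraries. Klf5 at T2.5 (5.0 and 4.25) and Klf8 at T6 (3.53 and 4.45) are high, and all 9 genes of the lower list are lower at T4.

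Lists around the SIN3A-binding genes moved in both directions. At T2.5, 29.0% of all genes tested rose and 28.0% fell in Cop1-floxed cells, and 28.8% rose and 30.0% fell in wild-type cells, which is the background for the counts of each list here. Of 12 TGF-beta pathway genes, listed for Klf10 and Klf11, 6 rose and 3 fell in Cop1-floxed and 6 rose and 4 fell in wild-type cells at T2.5; Ski, a corepressor of SMAD proteins, fell by 1.80 (adjusted p = 6.53e-13) in Cop1-floxed and 1.55 (adjusted p = 1.81e-11) in wild-type cells. The 7 glucocorticoid-related genes listed for Klf9 include Nr3c1, which encodes the glucocorticoid receptor itself. Of these 7, 2 rose and 5 fell in Cop1-floxed and 2 rose and 4 fell in wild-type cells at T2.5. Tsc22d3, which encodes GILZ, fell by 2.93 and Per1, a clock gene, by 2.63 in Cop1-floxed cells, and by 3.01 and 3.10 in wild-type cells, whereas Dusp1, a MAP kinase phosphatase that LPS signalling also induces, rose by 3.52 in Cop1-floxed and 3.37 in wild-type cells. Of 12 cofactor and ubiquitin ligase genes, 4 rose and 2 fell in Cop1-floxed and 5 rose and 1 fell in wild-type cells at T2.5. Hdac1, a histone deacetylase of SIN3A complexes, rose by 0.97 in Cop1-floxed and 0.78 in wild-type cells, where library totals gave 0.13 and no call, while Kat2b rose by 0.57 in Cop1-floxed cells, where library totals gave -0.06, and by 1.13 in wild-type cells. Of 18 tested reported targets of KLF2 and KLF4, 11 rose in each genotype at T2.5, and 2 fell in Cop1-floxed and 3 in wild-type cells; most are inflammatory genes such as Tnf, which rose by 6.29 in Cop1-floxed and 7.07 in wild-type cells. At T0, 4 of these 18 were higher and 1 lower in Cop1-floxed cells, beside 9.57% of all genes called, and Ccl2 (1.53) and Il6 (2.54) were among the higher ones.

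Genes whose pattern was most like each KLF gene were found by Pearson correlation of log2 CPM over the 12 group means, among 8425 genes with a mean of at least 5 CPM. Klf6 was most like Clic4 (r = 0.997) and Klf7 most like Slc4a7 (r = 0.993). Klf4 was most like Rab33b (r = 0.991), Klf10 most like Hdac5 (r = 0.989) and Klf11 most like Ddx50 (r = 0.988). Klf3 was most like Relb (r = 0.987), which encodes an NF-kappaB subunit. Klf16 was most like Ano6 (r = 0.985), Klf13 most like Hnrnpf (r = 0.983) and Klf9 most like Pdgfc (r = 0.981). Klf2 had the least close neighbour, Coro1a, with r = 0.928. Over the 36 libraries, Slc4a7, Ddx50, Relb and Hnrnpf were not among the 2 genes most like their KLF gene. The 12 means share mice and the LPS course, so these values describe likeness only.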

How the data were processed

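Counts and RPKM of 36 libraries in 12 groups of n = 3 were analysed. Per the file headers, the count table deposited by the authors gives the reads that aligned uniquely to each Entrez gene model, without normalisation, and their deposited RPKM were adjusted by size factors. Gene symbols and model sizes, among other values, come from the authors' gene data table, per the file headers. GSNAP and the build GRCm38 are named, per the submitters' processing notes; versions and the strand setting are not given in the sources used here. In the RefSeq gene table (assembly GRCm38.p6), 31049 of 36528 Entrez IDs were found.

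The test was edgeR 4.0.16 in R 4.3.3 (quasi-likelihood test, TMM, filterByExpr over the 12 groups, 1 mean per group, all libraries in 1 fit), which left 15685 genes. Benjamini-Hochberg adjustment ran over all genes of each comparison (threshold 0.05). Each SE was obtained by dividing the size of the log2 fold change by the root of its F statistic, and 95% intervals use this SE. Levels use the deposited RPKM. Replicates are separate individuals, per the labels, each sampled at all 6 times; libraries of the same individual had a median correlation of deviations from the group means of 0.0935 to 0.377 by individual, and they pair within a genotype because they come from the same animal. The script was tested on simulated data in which libraries were drawn independently, so that test does not cover the correlation within individuals.

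The members, gene lists and rules were chosen with earlier results of these data known. The text names the 10 members, up to 3 genes of a list by smallest p at T2.5 in wild-type cells, up to 2 by smallest p at T0 between genotypes, and the most similar genes; Klf15 was named after its values were seen. Alternatives were the size factors of DESeq2, library totals, other filters on low counts, DESeq2 1.42.0, limma-trend on log2(RPKM + 1), limma-voom (limma 3.58.1), a replicate block, only the groups compared, and leaving out libraries or mice.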

Additional observations from a re-analysis of the deposited data

How the results depend on the processing

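Calls of the LPS response stayed between 40 and 44 of 50 in Cop1-floxed cells and between 36 and 44 in wild-type cells under every alternative run, with 40 to 43 and 37 to 44 when 1 mouse was left out. With library totals these values changed sign against T0, as the scaling lowers all LPS values: Klf2 -0.63 in Cop1-floxed cells at T4 and -0.081, -0.66 and -0.32 in wild-type cells at T2.5, T4 and T13; Klf4 -0.60 in Cop1-floxed cells at T4 and -0.26 and -0.68 in wild-type cells at T4 and T13; Klf9 -0.89 in wild-type cells at T4; Klf13 -0.052, -0.28 and -0.96 in Cop1-floxed cells at T2.5, T4 and T6 and -0.047, -0.34, -0.73 and -0.86 in wild-type cells at T2.5, T4, T6 and T9; Klf16 -0.19 in wild-type cells at T4. T13 against T2.5 gave 8 to 9 calls in each genotype when 1 mouse was left out. The genotype count, 3 of 60, was 5 with limma-voom and 0 to 5 when 1 mouse was left out: 1 without Cop1-floxed replicate 1, 0 without Cop1-floxed replicate 2 and 5 without wild-type replicate 1; the cause was not tested. The F test and the sums per mouse gave 0 calls under every alternative run, leaving out each mouse included. With the individual as replicate block, 43 tests were called in each genotype; with the replicate number as block, which pairs no animals across genotypes (r between -0.176 and 0.116), 4 genotype tests were called. Of the 20 most similar genes, 10 were also found over the 36 libraries. Overlapping neighbours in level numbered 24 with RPKM from TMM-scaled counts. The F test has no version with only the groups compared.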
